A study of Sus scrofa with 6 samples.

Results

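The 7 miRNAs described here are known from blood leukocytes and from inflammatory signalling, and were taken by name from the 453 porcine miRNAs of the deposited table. They were ssc-miR-142-5p, ssc-miR-142-3p, ssc-miR-223, ssc-miR-150, ssc-miR-155-5p, ssc-miR-146a-5p and ssc-miR-146b. All 7 were measured, and all 7 had a mean above 1 CPM in at least 1 group, as did 309 of the 453 miRNAs. The material was small-extracellular vesicles (s-EVs), membrane-bound particles shed by cells, from the follicular fluid of ovaries of prepubertal Landrace × Large White gilts collected at a slaughterhouse. In the HQ group the oocyte of each follicle stayed free of lissamine green B, a dye that enters cells with damaged membranes. In the LQ group the oocyte was stained. Each group had 3 libraries, and each library was made from 0.5 mL of fluid pooled over follicles, so a value belongs to a pool and not to a follicle or an animal. The sources used here do not say whether the pools of a group came from separate animals or days, and p-values then measure the spread between these pools.

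miRNAs are short RNAs that repress mRNAs paired to their seed, the bases 2 to 8 from the 5′ end. What follows on their roles is known from human and mouse cells. Both arms of the miR-142 hairpin are found in nearly all blood cell lineages and hardly outside them. miR-223 is a myeloid miRNA, abundant in neutrophils, monocytes and platelets, and miR-150 is typical of mature lymphocytes, where it represses MYB. miR-155-5p is induced in activated macrophages, B cells and T cells and represses the inositol phosphatase SHIP1. miR-146a-5p is induced by NF-kB and represses TRAF6 and IRAK1, adaptors upstream of NF-kB, which closes a negative feedback loop. miR-146b is its paralog from another locus. Granulosa cells line the follicle without blood vessels, while the theca outside them is vascular and holds macrophages.

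The mature sequences of 6 of the 7 were read from the RefSeq annotation of Sscrofa11.1, the build named in the study, and are shown because the seeds tell which of these miRNAs can act on the same mRNAs. Seeds are in capitals.
ssc-miR-142-5p: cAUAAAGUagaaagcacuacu
ssc-miR-142-3p: uGUAGUGUuuccuacuuuaugg
ssc-miR-150: uCUCCCAAcccuuguaccagug
ssc-miR-155-5p: uUAAUGCUaauugugauagggg
ssc-miR-146a-5p: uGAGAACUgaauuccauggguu
ssc-miR-146b: uGAGAACUgaauuccauaggc
miR-146a-5p and miR-146b shared the seed GAGAACU, and the other 4 had a seed of their own that no other annotated porcine miRNA held. Over their 21 common positions, counted from 1 at the 5′ end of miR-146a-5p, the paralogs differed at 2 positions, G18A and U21C (the base of miR-146a-5p first), both outside the seed.

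The hairpin of miR-142 is shown with both mature arms in capitals, since the arms are compared with each other below.
MIR142: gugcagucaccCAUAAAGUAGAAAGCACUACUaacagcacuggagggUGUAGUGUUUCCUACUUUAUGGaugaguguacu
It lies on the minus strand of chromosome 12 from 34609378 to 34609457 and is 80 nt long, with 15 nt between the arms. The 5p arm spans 34609426 to 34609446 and the 3p arm 34609389 to 34609410. No other annotated gene overlaps it. The nearest genes were TSPOAP1, 2755 bp from its lower end, and SUPT4H1, 13318 bp from its upper end. The remaining loci were also free of other annotated genes. MIR146A lies on chromosome 16 (mature 63044307 to 63044328), MIR146B on chromosome 14 (113446874 to 113446894), MIR155 on chromosome 13 (189138832 to 189138853) and MIR150-1 on chromosome 6 (54580957 to 54580978). MIR150-1 was the closest to a neighbour, 115 bp from FCGRT on the opposite strand. GC content of the mature sequence was 33.3% for miR-142-5p, 36.4% for miR-142-3p and miR-155-5p, 40.9% for miR-146a-5p, 42.9% for miR-146b and 54.5% for miR-150.

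The deposited values are CPM (counts scaled to a common library total), with the library size adjusted by the trimmed mean of M-values (TMM). Their sum ran from 915120 in HQ replicate 2 to 1103611 in LQ replicate 1. Every value was a whole multiple of 1 smallest step in its library, within 6.66e-05 of a step, and with a step taken as 1 read the libraries held 898530 (LQ replicate 1) to 3159116 reads (LQ replicate 3). The intervals given below are exact 95% Poisson intervals on that reading and cover counting error only. LQ replicate 1 was thus the shallowest library, with 1.23 CPM per step against 0.341 to 0.571 CPM in the others. The gonadal miRNA miR-202-5p, at 39008 to 88612 CPM over the 6 libraries, was among the most abundant miRNAs of each. Values of single libraries are given in the order of the replicate numbers, HQ first.

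Levels of the 7 miRNAs spanned nearly the whole range of the table. miR-146a-5p was among the most abundant miRNAs of every library, at rank 9 to 13 of 453 and 2.13% to 3.00% of the summed CPM. The other 6 together held 196 to 320 CPM. In order of their HQ means these were miR-155-5p at 63.4 ± 5.75 CPM, miR-223 at 62.1 ± 6.06 CPM, miR-142-5p at 32.0 ± 4.33 CPM, miR-142-3p at 29.7 ± 7.44 CPM, miR-150 at 16.0 ± 0.497 CPM and miR-146b at 4.59 ± 1.69 CPM (SD, n = 3 for each). Within this order, miR-155-5p and miR-223 overlapped over the HQ libraries, as did the 2 arms of miR-142, and the other neighbours did not. In LQ the order changed, with miR-142-5p first at 87.0 ± 31.6 CPM, then miR-223 at 84.0 ± 24.8 CPM, miR-155-5p at 44.0 ± 1.57 CPM, miR-142-3p at 32.8 ± 5.73 CPM, miR-150 at 15.8 ± 5.67 CPM and miR-146b at 3.49 ± 1.57 CPM (SD, n = 3 for each). In LQ, miR-142-5p and miR-223 overlapped, and the other neighbours in the order did not. The mature forms are 21 or 22 nt long where annotated, so length hardly enters these comparisons of level, while the efficiency of capture of each sequence was not tested.

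**Figure D1:**
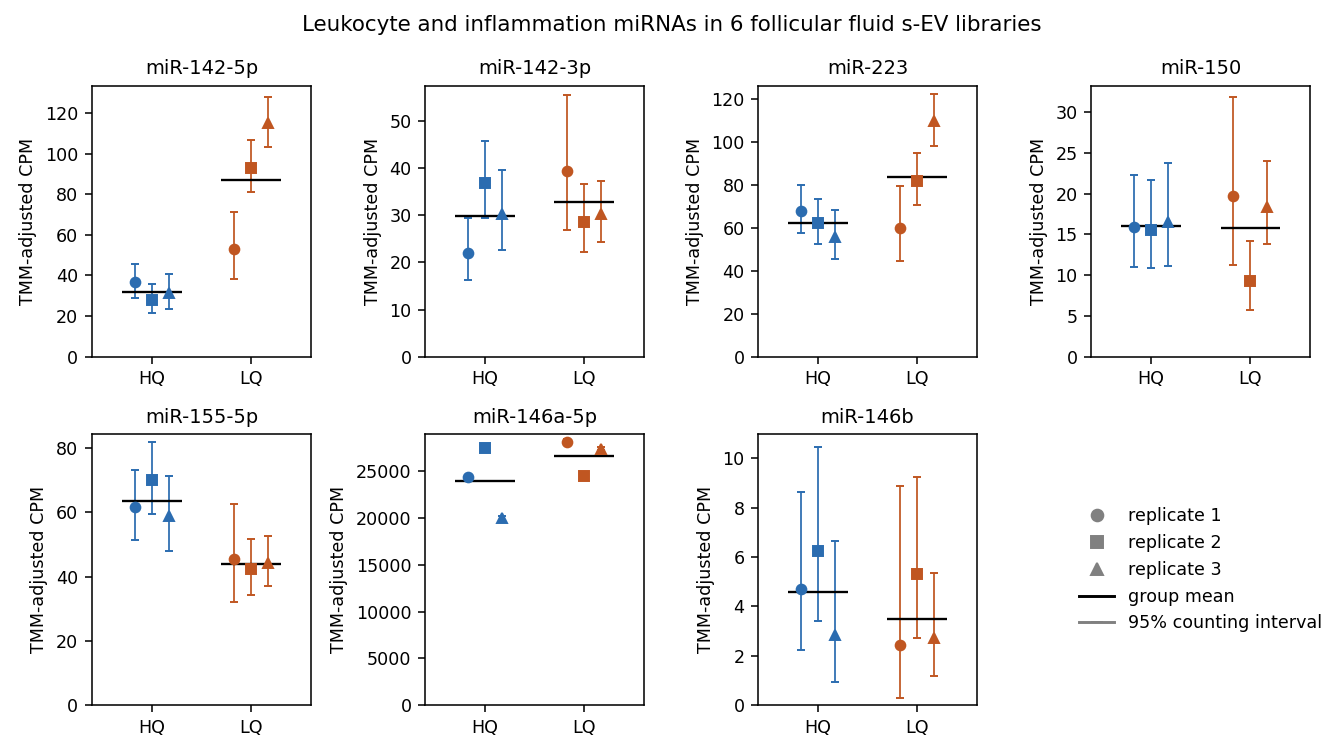
TMM-adjusted CPM (vertical axes, linear, from 0, scaled per miRNA) of the 7 miRNAs in the 3 HQ (blue) and 3 LQ (orange) libraries, with symbols for the replicate, horizontal lines for group means and bars for 95% counting intervals. miR-142-5p lies at 28.0 to 36.6 CPM in HQ and at 52.8 to 115 CPM in LQ, miR-155-5p lies lower in all 3 LQ libraries, and the other 5 overlap between the groups.

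The comparison of HQ with LQ asked whether vesicles from the fluid around stained oocytes carried more or less of these miRNAs. Of the 7, only miR-142-5p differed past the test, and it was higher in LQ. The other 6 did not pass, including its sister arm miR-142-3p and the myeloid miR-223. Fold changes here are HQ against LQ on log2(CPM + 0.5), so a negative value is higher in LQ, and adjusted p-values are from limma with Benjamini-Hochberg adjustment over the 309 miRNAs. Adjusted p was under 0.05 for 1 of the 7 and for 26.5% of all tested miRNAs, in LQ-raised direction for 1 of the 7 and 14.9% of all, and in HQ-raised direction for 0 of the 7 and 11.7% of all. With all libraries scaled to equal sums the split over all miRNAs turned from 36 higher in HQ and 46 higher in LQ to 60 and 27, and miR-142-5p stayed past the test at -1.17 (adjusted p = 0.0104 from limma). At an unadjusted p under 0.05 the numbers were 1 of the 7 and 38.8% of all. The median log2 fold change was -0.15 over the 7 and 0.08 over all 309. The values of the groups did not overlap for 2 of the 7, miR-142-5p and miR-155-5p, and for 43.7% of all tested miRNAs. The 7 miRNAs thus did not exceed the background share on any of these counts. At the thresholds of the study, given below, 1 of the 7 was called higher in LQ, against 7.44% of all tested miRNAs. That share of the 7 rests on miR-142-5p alone.

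**Figure D2:**
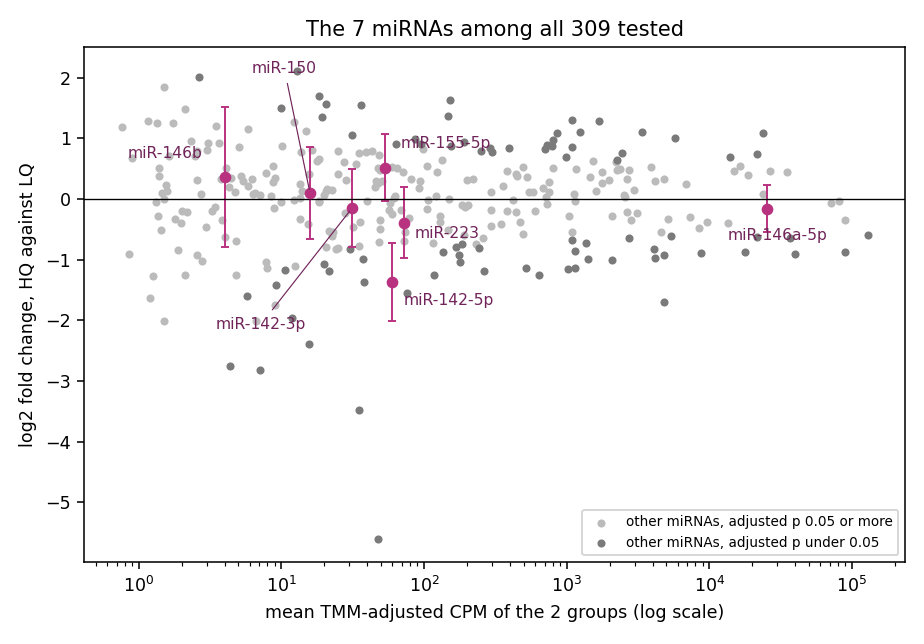
Log2 fold change of HQ against LQ (vertical axis) against the mean CPM of the groups (horizontal axis, log scale) for the 309 tested miRNAs in grey and the 7 leukocyte and inflammation miRNAs in purple, whose bars are limma's 95% confidence intervals. The interval of miR-142-5p, -2.01 to -0.72, excludes 0 and those of the other 6 include it.

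miR-142-5p, known from blood cells of human and mouse, was at 36.6, 28.0 and 31.4 CPM in the HQ libraries and at 52.8, 93.1 and 115 CPM in the LQ libraries. Its cell of origin was not measured here. All 3 LQ libraries lay above all 3 HQ libraries, and LQ replicate 1 lay closest to them. The means differed 2.72-fold, and the log2 fold change was -1.36 (standard error 0.307, adjusted p = 0.00365 from limma). It met the thresholds of the study in the LQ direction (fold of at least 2, adjusted p under 0.05, mean above 5 CPM in the enriched group), as did 7.44% of all tested miRNAs. The values rest on 55 to 78 steps in HQ and on 43, 211 and 338 steps in LQ. The counting interval of LQ replicate 1, 38.2 to 71.1 CPM, overlapped those of HQ replicate 1, 28.9 to 45.7 CPM, and HQ replicate 3, 23.7 to 40.9 CPM. It did not reach that of HQ replicate 2, 21.5 to 35.9 CPM, or that of LQ replicate 2, 80.9 to 106 CPM. The spread inside LQ, a coefficient of variation of 36.3%, was larger than the 13.5% inside HQ and than the median of 21.1% over the 54 tested miRNAs within a factor of 2 of its mean level. Without LQ replicate 1 the log2 fold change was -1.69 (adjusted p = 0.000583 from limma), and it passed with each library left out in turn. In pooled fluid, more vesicles from a cell type and more of the miRNA per vesicle cannot be told apart.

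The call of miR-142-5p did depend on GC content. Each library's deviations from the mean over libraries were followed against the GC content of 256 miRNAs, and per 10 percentage points of GC the slope was 0.25, 0.24 and 0.06 (log2) in the HQ libraries and -0.17, -0.18 and -0.20 in the LQ libraries. With these slopes removed, miR-142-5p stood at -0.81 (95% interval -1.45 to -0.18, adjusted p = 0.0592 from limma), which fails both the fold and the p threshold. With the replicate number as a block in the same fit the value was again -0.81 and its adjusted p was 0.0178 from limma, past the p threshold and short of the fold. Libraries with the same number were not correlated (r of -0.04 to -0.01), so the block has no known pairing behind it and does not restore the call. The GC correction takes away any group difference that follows GC content, whatever its source, and the part of GC in this result cannot be told apart from the group.

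miR-142-3p, the opposite arm of the same hairpin, was at 22.1, 36.9 and 30.3 CPM in the HQ libraries and at 39.3, 28.7 and 30.3 CPM in the LQ libraries. The groups overlapped, with the lowest library in HQ and the highest in LQ. The log2 fold change was -0.15 (95% interval -0.80 to 0.49, adjusted p = 0.759 from limma), and the interval leaves out a 2-fold change in either direction. Its sign turned when all libraries were scaled to equal sums (0.04), after GC correction (0.29) and without HQ replicate 1 (0.04).

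Both arms are cut from 1 precursor. Like any ratio inside a library, that of the arms does not depend on how libraries are scaled. The 5p to 3p ratio of CPM was 1.66, 0.759 and 1.04 in the HQ libraries and 1.34, 3.25 and 3.80 in the LQ libraries. In steps, the 5p arm held 62.4% of the steps on both arms in HQ replicate 1 (exact 95% binomial interval 53.3% to 70.9%), 43.2% in HQ replicate 2 (35.0% to 51.6%) and 50.9% in HQ replicate 3 (41.1% to 60.7%). In LQ it held 57.3% in replicate 1 (45.4% to 68.7%), 76.4% in replicate 2 (71.0% to 81.3%) and 79.2% in replicate 3 (75.0% to 82.9%). LQ replicates 2 and 3 lay above every HQ library also in their counting intervals, while LQ replicate 1 lay among the HQ libraries. On the log2 scale the mean ratio was 0.13 ± 0.56 (SD, n = 3) in HQ and 1.34 ± 0.80 (SD, n = 3) in LQ, a difference of -1.21 that did not pass (two-sided exact permutation test, p = 0.2, adjusted p = 0.3 over the 3 ratios tested, where 0.1 is the smallest p that 3 against 3 libraries allow). Among 66 hairpins with both arms tested, the absolute difference between the fold changes of the arms was 0.66 (log2) at the median, and that of miR-142 ranked 12. Most hairpins ranked above it had an arm at a low level, such as miR-421-5p (0 to 4.09 CPM) and miR-148a-5p (1.23 to 4.57 CPM). Of those above it, miR-671 (rank 4) and miR-1306 (rank 10) had both arms at 16.3 CPM or more in every library. The 5p arm had the more negative fold change in 32 of the 66.

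**Figure D3:**
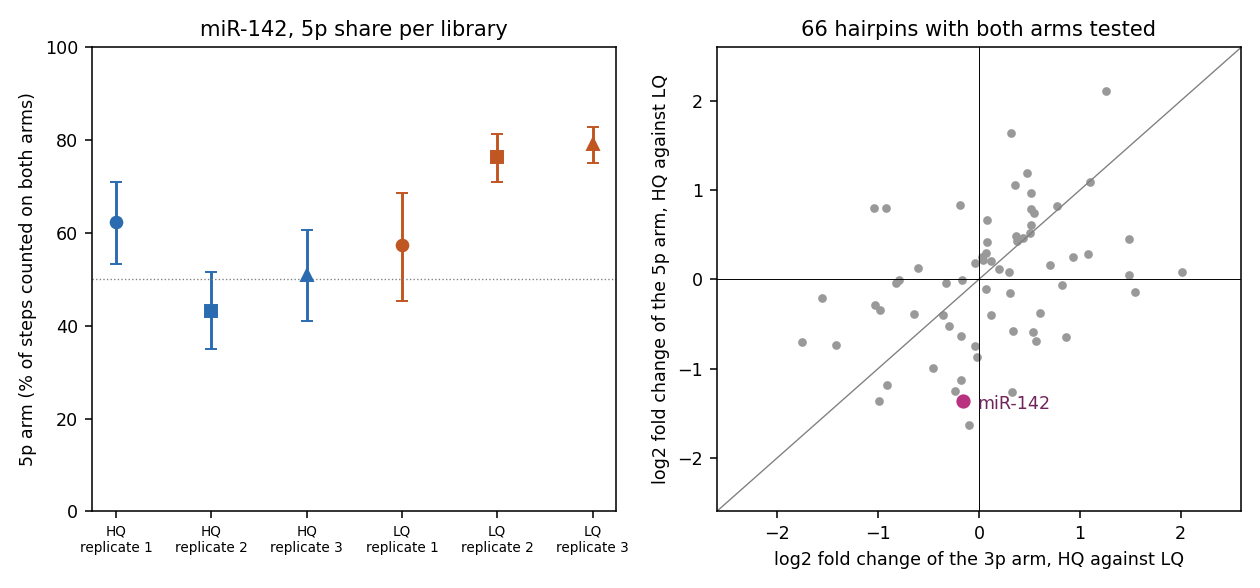
Left, share of the 5p arm among the steps counted on both arms of miR-142 (vertical axis, percent) in each library, with exact 95% binomial intervals and a dotted line at equal shares; LQ replicates 2 and 3 stand at 76.4% and 79.2%, and LQ replicate 1, at 57.3%, lies among the HQ libraries. Right, log2 fold change of the 5p arm against that of the 3p arm, HQ against LQ, for 66 hairpins, with miR-142 in purple below the line of equal change.

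miR-223, the myeloid and platelet miRNA, was at 68.1, 62.3 and 55.9 CPM in the HQ libraries and at 60.2, 82.0 and 110 CPM in the LQ libraries. LQ replicates 2 and 3 lay above all HQ libraries and LQ replicate 1 lay between them, so the groups overlapped. The log2 fold change was -0.39 (95% interval -0.98 to 0.19, adjusted p = 0.302 from limma). As for miR-142-5p, LQ replicate 1 was the lowest of the LQ libraries and LQ replicate 3 the highest. Without LQ replicate 1 the log2 fold change was -0.61 (adjusted p = 0.10 from limma) and without LQ replicate 3 it was -0.18 (adjusted p = 0.754 from limma).

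miR-150, the lymphocyte miRNA, was at 16.0, 15.6 and 16.6 CPM in the HQ libraries and at 19.7, 9.26 and 18.4 CPM in the LQ libraries. The HQ libraries lay within 1 CPM of each other, and both the lowest and the highest value came from LQ. Each value rested on 16 to 54 steps, and even the interval of LQ replicate 2, 5.73 to 14.2 CPM, overlapped those of the HQ libraries. The log2 fold change was 0.09 (95% interval -0.67 to 0.86, adjusted p = 0.889 from limma), with a negative sign after GC correction (-0.13) and without LQ replicate 2 (-0.24).

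miR-155-5p, the miRNA of activated leukocytes, was at 61.5, 69.8 and 58.8 CPM in the HQ libraries and at 45.4, 42.3 and 44.3 CPM in the LQ libraries. All HQ libraries lay above all LQ libraries, opposite to miR-142-5p. The means differed 1.44-fold and the log2 fold change was 0.52 (standard error 0.262, 95% interval -0.03 to 1.07, adjusted p = 0.146 from limma), so it did not pass. The LQ libraries had a coefficient of variation of 3.56%, against a median of 21.4% over 55 tested miRNAs of like level, although the counting interval of LQ replicate 1 alone ran from 32.0 to 62.6 CPM. With the GC slopes removed, miR-155-5p was at 0.96 (95% interval 0.41 to 1.51, adjusted p = 0.0147 from limma). That is past the p threshold and short of the fold of 2. Its sequence is poor in GC, as is that of miR-142-5p, and the correction moved both toward HQ.

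miR-146a-5p, the NF-kB feedback miRNA, was at 24346, 27494 and 20011 CPM in the HQ libraries and at 28118, 24455 and 27407 CPM in the LQ libraries. HQ replicate 3 was the lowest library and the rest of the HQ values lay inside or near the LQ range. Counting error was small here, with 22893 steps or more in each library. The log2 fold change was -0.16 (95% interval -0.55 to 0.22, adjusted p = 0.549 from limma), and the interval leaves out changes of 1.5-fold in either direction. The sign turned with equal sums (0.03) and after GC correction (0.11).

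miR-146b, with the same seed, was at 4.69, 6.23 and 2.85 CPM in the HQ libraries and at 2.46, 5.29 and 2.72 CPM in the LQ libraries. The groups overlapped, and a library held only 2 to 14 steps. The log2 fold change was 0.36 (95% interval -0.80 to 1.52, adjusted p = 0.689 from limma), an interval that includes a level 2-fold higher in HQ. miR-146a-5p exceeded its paralog 4415- to 7011-fold in HQ and 4621- to 11447-fold in LQ, so nearly all of the reads with this seed were those of miR-146a-5p. With 0.5 added to each CPM, which lowers the ratio at the low level of miR-146b, the log2 ratio of the pair was 12.24 ± 0.28 in HQ and 12.77 ± 0.63 in LQ (SD, n = 3). The groups did not differ past the test (two-sided exact permutation test, p = 0.3, adjusted p = 0.3). The other arms, miR-146a-3p and miR-155-3p, were listed at 0 in all 6 libraries, which allows up to 1.02 to 3.68 CPM when a count of 0 is taken to allow 3 steps.

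The pair of NF-kB-induced miRNAs, miR-146a-5p and miR-155-5p, was compared inside each library as well. miR-146a-5p was 396, 394 and 340 times as high as miR-155-5p in the HQ libraries and 619, 578 and 619 times as high in the LQ libraries. The groups did not overlap, and the spread inside a group was small, at 8.54 ± 0.12 in HQ and 9.22 ± 0.06 in LQ on the log2 scale (SD, n = 3). The difference of -0.68 reached the smallest p that 6 libraries allow (two-sided exact permutation test, p = 0.1, adjusted p = 0.3), which is not past the threshold. Leaving out any 1 library kept it between -0.72 and -0.61.

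**Figure D4:**
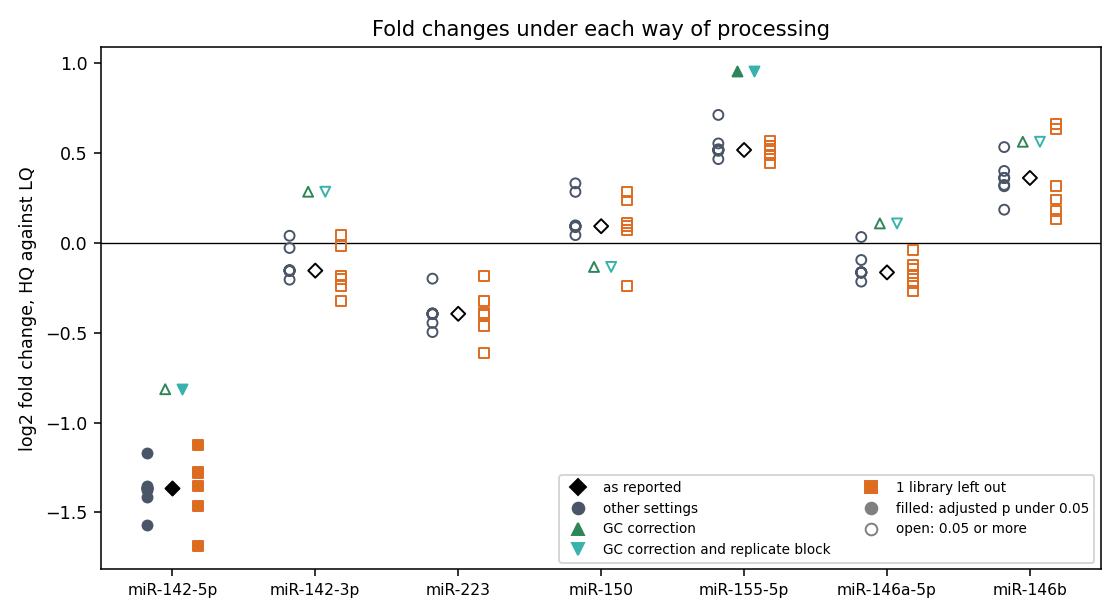
Log2 fold change of HQ against LQ (vertical axis) of the 7 miRNAs as reported, under other settings of the processing, after GC correction with and without the replicate number as a block, and without each library in turn, where filled symbols have an adjusted p under 0.05. miR-142-5p stays negative throughout, from -1.69 to -0.81, and miR-155-5p stays positive, from 0.45 to 0.96, while miR-142-3p, miR-150 and miR-146a-5p cross 0.

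Further miRNAs with a known role in leukocytes or NF-kB signalling were taken as a list of 15, all of them tested. Of these, 4 passed the test with more in HQ and 2 with more in LQ, and 9 missed it, where 11.7% of all tested miRNAs passed with more in HQ and 14.9% with more in LQ. The list was drawn up with earlier results of these data known, and some of its members share a family. Its counts therefore cannot be read as an excess over these shares. The list had a median log2 fold change of 0.25 against 0.08 over all tested miRNAs. The lymphocyte miRNA miR-342 was at 2348 to 3043 CPM in HQ and 1605 to 1846 CPM in LQ, without overlap. Its fold change was 0.65 (log2, limma adjusted p = 0.0287), and the call ended after GC correction (adjusted p = 0.0682) and on leaving out any 1 of HQ replicates 1 and 2 and LQ replicates 2 and 3 (adjusted p of 0.0660 to 0.102). Also higher in HQ were miR-132, which is induced by CREB in many cells and is best known in follicles as a response to luteinizing hormone, and the neighbours in sequence miR-125a and miR-125b. By droplet digital PCR in the study, however, miR-125b did not differ significantly between the groups. For miR-125a the adjusted p rose to 0.0575 on leaving out HQ replicate 1 and to 0.0793 on leaving out HQ replicate 2. The 2 that were raised in LQ were miR-9 and miR-9-1, written as in the table. miR-9, which toll-like receptor ligands induce in human monocytes and which is best known from neurons, was at 3.75, 5.34 and 6.28 CPM in the HQ libraries and 39.3, 62.2 and 92.6 CPM in the LQ libraries (log2 fold change -3.48, adjusted p = 2.40e-06 from limma). Both passed in every alternative run. The most abundant of the list, miR-21-5p, a miRNA raised in many inflamed tissues, was at 6872 to 9814 CPM in HQ and 10440 to 11448 CPM in LQ. It did not overlap between the groups and did not pass (log2 fold change -0.38, adjusted p = 0.151 from limma). miR-181a, miR-181b, miR-31, miR-34a, miR-27a, miR-221-3p, miR-222 and miR-212 did not pass either (adjusted p of 0.0808 to 0.983).

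Follicular fluid may carry blood from the wall of the follicle, so miRNAs of other blood and vessel cells were read beside those of leukocytes. The erythrocyte list had 4 members, of which 3 were tested, and they moved in different directions. miR-451, the erythrocyte miRNA cut by AGO2, averaged 6.22 CPM in HQ and 15.1 CPM in LQ without overlap (log2 fold change -1.18, adjusted p = 0.0403 from limma). The call did not survive leaving out any 1 library other than LQ replicate 1 (adjusted p of 0.0596 to 0.214), nor GC correction (adjusted p = 0.205). miR-486 went the other way, from 92.5 to 145 CPM in HQ to 63.7 to 67.6 CPM in LQ (log2 fold change 0.91, adjusted p = 0.0158 from limma), and its call ended after GC correction (adjusted p = 0.32) and on leaving out HQ replicate 1, HQ replicate 2 or LQ replicate 2 (adjusted p of 0.0614 to 0.0885). miR-185 did not pass (adjusted p = 0.691), and miR-144 was at 0 in all libraries but LQ replicates 2 and 3. The list summed to 2742 to 4024 CPM in HQ and 2567 to 3213 CPM in LQ, nearly all of it miR-185. With no trend in the variance prior the calls of miR-342, miR-125a, miR-451, miR-486 and miR-202-3p ended as well (adjusted p of 0.0606 to 0.121), and that of miR-451 also with no filter (0.0585) and with equal sums (0.0746). The endothelial miR-126-5p was higher in LQ (718 CPM in HQ and 1587 CPM in LQ, log2 fold change -1.13, adjusted p = 0.00222 from limma), while its sister arm miR-126-3p was not past the test (-0.18, adjusted p = 0.640). Together these arms summed to 874 to 1062 CPM in HQ and 1619 to 2149 CPM in LQ. Of the follicle list, miR-202-3p was higher in HQ (0.83, adjusted p = 0.0287 from limma, lost after GC correction, at 0.0756, and on leaving out HQ replicate 2 or 3 or LQ replicate 2 or 3, at 0.0528 to 0.175), miR-202-5p, miR-224 and miR-378 did not pass, and miR-383 was too low to be tested. The part of blood or of vessel cells in the level of miR-142-5p was not tested.

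Over the 6 libraries the miRNA with the pattern most like that of miR-142-5p was miR-133a-3p, a muscle miRNA. The measure was the root mean square distance of log2(CPM + 0.5) centred per miRNA, over 205 tested miRNAs with a mean above 20 CPM, and it was 0.16 for miR-133a-3p. This miRNA was at 35.7, 33.4 and 41.1 CPM in the HQ libraries and at 65.1, 126 and 155 CPM in the LQ libraries. Next came miR-126-5p (0.23), at 725, 630 and 800 CPM in HQ and 1265, 1644 and 1850 CPM in LQ, and miR-143-5p of smooth muscle and stroma (0.26), at 19.2, 15.1 and 24.5 CPM in HQ and 24.6, 62.2 and 83.4 CPM in LQ. In all 3, LQ replicate 1 was the lowest LQ library and LQ replicate 3 the highest, as in miR-142-5p, a likeness favoured by their choice on this distance. The nearness is a description over 6 points that share libraries, depth and the GC slopes given above, and GC correction parted the patterns. miR-133a-3p went from -1.55 to -1.87 and miR-143-5p from -1.36 to -1.86 (log2 fold change), away from 0. miR-126-5p went from -1.13 to -0.76, toward 0, as miR-142-5p did from -1.36 to -0.81. miR-223 ranked 39 by this distance (0.51), with the same order of the LQ libraries.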

How the data were processed

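Small RNAs of s-EVs were sequenced from pooled follicular fluid, 3 libraries per group. Groups were taken from the oocyte quality, high or low, given in the labels, which the study assigned by staining. The authors trimmed reads and annotated them against Sscrofa11.1 and miRBase in CLC Genomics Workbench, and deposited 1 signal value per miRNA and library, as TMM-adjusted CPM. The submitters' processing notes also name bcl2fastq, Bowtie2 2.2.2 and DESeq2. It is not stated whether molecular identifiers were counted. miRNAs passed the low-value filter where 1 group or both averaged above 1 CPM (309 miRNAs), and log2(CPM + 0.5) was then fitted by limma 3.58.1 (R 4.3.3) with a trended prior, two-sided, with no block. Low values were too few per library for the steps to be accepted as counts, so the groups were not compared with a count model. The Poisson and binomial intervals take a step as 1 read without that check and are descriptive. Log2 ratios were taken as differences of log2(CPM + 0.5), which leaves a slight dependence on scaling where a value is low. They were compared by exact permutation tests (3 ratios, Benjamini-Hochberg). The fit was also run on simulated data with independent libraries, a fixed dispersion and no GC slopes. That run does not bear on the GC dependence described above.

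The 7 miRNAs and the lists were chosen with earlier results of these data known. The text names all 7, other arms of their hairpins, listed miRNAs that pass or are most abundant, and the 3 patterns nearest to miR-142-5p. The remaining listed miRNAs were named for completeness after their values were seen. GC content came from mature sequences of Sscrofa11.1, matched for 367 of 453 miRNAs (347 by name, 20 by name and arm) and for 256 (82.8%) of those tested. Alternatives covered pseudocount, filter, variance prior, array weights, scaling, GC correction, the replicate block and each library left out. Figures used matplotlib 3.10.9.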

Additional observations from a re-analysis of the deposited data

How the results depend on the processing

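miR-142-5p kept its sign in all 17 alternatives, passed in 16 and kept a fold of at least 2 in 15. It failed after GC correction (-0.81, adjusted p = 0.0592) and passed when the replicate block was added (-0.81, adjusted p = 0.0178). miR-155-5p kept its sign in all 17 and passed only after GC correction (0.96, adjusted p = 0.0147) and when the replicate block was added to the GC term (0.96, adjusted p = 0.00492), where 2 of the 7 miRNAs passed in place of 1. The fold of miR-155-5p was below 2 in all 17. The remaining 5 did not pass in any alternative run, and miR-223 had no value after GC correction. Over all miRNAs, 82 had an adjusted p under 0.05, against 29 with no trend in the variance prior and 29 to 109 with 1 library left out (29 without HQ replicate 2, 46 without LQ replicate 2, 48 without HQ replicate 1). With equal sums the median of all fold changes moved from 0.08 to 0.25, and relative to that median miR-142-5p was at -1.44 as reported and -1.42 with equal sums. With 1 library left out, the difference in the log2 ratio of miR-146a-5p to miR-146b ranged from -0.89 (without LQ replicate 2) to -0.30 (without LQ replicate 1), against -0.53 as reported, and that of the miR-142 arms from -1.67 to -0.93 against -1.21. With the replicate number as a replicate block, miR-142-5p had an adjusted p of 0.000171 at a log2 fold change of -1.36, and 97 miRNAs passed. Deviations of libraries with the same number were not correlated across miRNAs (r of -0.04 to -0.01), so the numbers were not taken as pairs. Depth limits miR-146b most, at 2 to 14 steps a library.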
